A study of Mus musculus with 2 samples.

Results

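The genes described here sense stress in the endoplasmic reticulum (ER), fold and inspect proteins there, and move them into and out of it. They were followed in pDCs (plasmacytoid dendritic cells), dendritic cells known for their large output of type I interferon, with and without the transcription factor Runx2. The list holds 42 genes chosen by symbol, each read from the probe set that carries that symbol alone, or from the one with the highest mean where there were several. Of these, 41 were measured, among 19938 named genes in all. The exception was Sec61g, the small gamma subunit of the translocation channel, which appears only on 4 probe sets shared with other symbols and was given no value.

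Both samples were bone marrow pDCs from mouse chimeras, animals in which transplanted fetal liver cells of another mouse had rebuilt the blood, taken 2 months after reconstitution. In one group the fetal liver was Runx2-/-, in the other wild type; the hosts, the number of animals and any pooling are not given in the labels. Cells were sorted as CD11b-negative, BST2-positive and B220-positive, and 250 ng of their total RNA was used for a Mouse Gene 1.0 ST array (Affymetrix), whose probes lie along the length of each transcript. With 1 array per genotype there is no spread between samples, so no difference below has an error, a p-value or a replicate check, and each is a difference between 2 samples.

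Proteins bound for secretion, the cell surface or the endosomes enter the ER through the SEC61 channel, fold there with the help of chaperones and disulfide isomerases, and leave in COPII-coated vesicles. Proteins that fail to fold are sent back to the cytosol for destruction, a route called ER-associated degradation (ERAD). When unfolded proteins build up, the sensors IRE1, PERK and ATF6 start the unfolded protein response (UPR), which raises the transcription of chaperone and ERAD genes. pDCs resemble plasma cells in their well-developed rough ER, make large amounts of interferon, and express the UPR factor XBP1 strongly.

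The 41 measured genes of the list were at similar levels on both arrays. Other genes of the same pathways are given further below and differed more often. A gene is called 25% apart where the higher intensity exceeded the lower by at least 25%. None of the 41 measured genes was 2-fold apart, and 37 were not 25% apart. The other 4 were Ddit3 and Pdia4, higher on the Runx2-deficient array, and Sdf2l1 and Edem2, lower on it. Differences are given as log2 of the Runx2-deficient intensity minus log2 of the wild-type intensity, so 25% apart is 0.32 and 2-fold is 1, in either direction. The median over the 41 genes was 0.050, with quartiles of -0.064 and 0.13 and extremes of -0.50 and 0.49. Under other scalings of the arrays that median lay between -0.0058 and 0.13. Over all 19938 named genes the median was -0.033, and under those scalings it lay between -0.052 and 0.043. The brightness filter kept a gene that reached the array's median over named genes (log2 intensity of 7.61 for wild type and 7.54 for Runx2-deficient) on either array or both. All 41 genes passed, Ddit3 through the Runx2-deficient array alone. In total 10337 named genes passed, with a median of -0.014 and quartiles of -0.19 and 0.16. Of these, 47.8% were above 0, the share to set beside each count of genes above 0 given below.

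Of those 10337 genes, 24.4% were at least 25% apart, against 4 of the 41 members (9.76%). By direction, 10.8% were higher on the Runx2-deficient array and 13.6% lower, against 2 and 2 members. At 2-fold, 0.793% of genes past the filter were higher and 1.17% lower. Over all named genes, dim ones included, 6.48% were at least 25% apart upward and 9.47% downward. The plot of difference against level shows the members inside the cloud of other genes at every brightness.

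**Figure D1:**
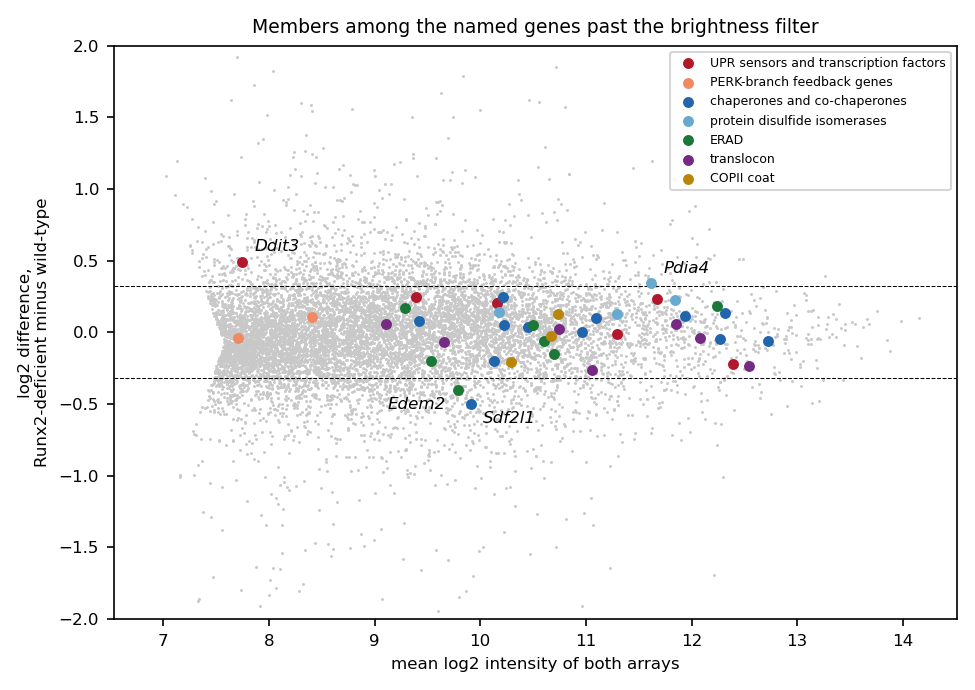
Log2 difference (Runx2-deficient minus wild-type) against the mean log2 intensity of both arrays. Grey points are the 10337 named genes past the brightness filter, of which 39 lie beyond the axis limit of 2 in either direction; coloured points are the 41 members by class, and dashed lines mark 25% apart. The 4 members outside the dashed lines are Ddit3 and Pdia4 above, and Sdf2l1 and Edem2 below.

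The labelled cell type was checked on its markers. All 9 measured pDC markers were past the filter, and their intensities summed to 75408 in wild type and 69493 without Runx2. Runx2 itself was not analysed here, so the genotype was not checked on the deleted gene. Of the 9, 6 were lower without Runx2, and 2 of these were 25% apart, Atp1b1 (-0.52) and Ly6d (-0.46); the sort marker Bst2 differed by -0.31. Markers of some other cells differed between the arrays. The 10 neutrophil and precursor genes, each lower without Runx2, summed to an intensity of 17519 in wild type against 2213. The 7 erythroid genes, also each lower, summed to 2468 against 884. Of 4 monocyte genes 3 were lower, and the 4 summed to 3320 against 1185. The other, Csf1r, was higher (0.64), at 150 in wild type, below the filter level, and 233 without Runx2. Conventional dendritic cell markers (8636 and 9762, 5 of 5 not 25% apart), B cell markers (2686 and 2926) and T cell markers (535 and 470) differed less in sum. These last sums rest on few bright genes. The filter level was reached on neither array by 3 of 5 B cell and 3 of 4 T cell markers. The same held for 2 of 5 conventional dendritic cell markers. Cd79b (0.26) made up most of the B cell sum, at 2000 in wild type and 2397 without Runx2. Of the B cell genes 3 were lower, including Cd79a (-0.58), and 2 higher. All 4 T cell genes were lower, Cd3e (-0.34) the furthest. The cell types listed have ER genes of their own, and their part in the differences below was not tested. In such samples, fewer cells of a type and less RNA per cell cannot be told apart.

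Among the stress sensors and their transcription factors, 4 of 6 were higher on the Runx2-deficient array, as were 47.8% of genes past the filter. Ddit3 alone, 1 of 6, was 25% apart. The median of the 6 was 0.22. Ddit3 encodes CHOP, the factor that ties prolonged ER stress to cell death. It was at 181 intensity units in wild type and 255 without Runx2, or 7.50 and 7.99 in log2 units, a difference of 0.49. The wild-type value lay just under the filter level, so the fold of 1.41 rests on a dim denominator. Of the 10337 genes past the filter, 10.3% lay as far from 0 in either direction as Ddit3.

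Xbp1, whose messenger RNA is cut by IRE1 to make an active factor that drives secretory genes, was the sensor-pathway gene that differed most in the other direction. Its intensity was 5808 in wild type and 4982 without Runx2, a difference of -0.22. A value summed over the transcript does not separate the cut from the uncut form, so it reports the amount of Xbp1 message and not its activation. Ern1, which encodes the IRE1 sensor itself, was at 2528 and 2509, a difference of -0.01.

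The other branches of the response lay slightly above 0. Eif2ak3, which encodes PERK, the kinase that slows translation under stress, was at 1066 intensity units in wild type and 1226 without Runx2, a difference of 0.20. Atf4, the transcription factor translated when PERK is active, was at 619 and 734, a difference of 0.25. Atf6, the sensor that is itself cleaved into a transcription factor, was at 3013 and 3537, a difference of 0.23. None of the 3 genes was 25% apart, and 35.6% to 44.6% of genes past the filter lay at least as far from 0.

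The feedback genes downstream of PERK and ATF4 were nearly equal. Ppp1r15a encodes GADD34, which restores translation by directing a phosphatase to eIF2-alpha. It was at 327 intensity units in wild type and 353 without Runx2, a difference of 0.11. Trib3, a pseudokinase gene induced by ATF4 and CHOP, was at 211 and 206, a difference of -0.04. Trib3 thus differed by -0.04 and Ddit3 by 0.49 on the same pair of arrays. The sign of Trib3 changed under other scalings (-0.043 to 0.038), and both genes lay near the filter level.

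**Figure D2:**
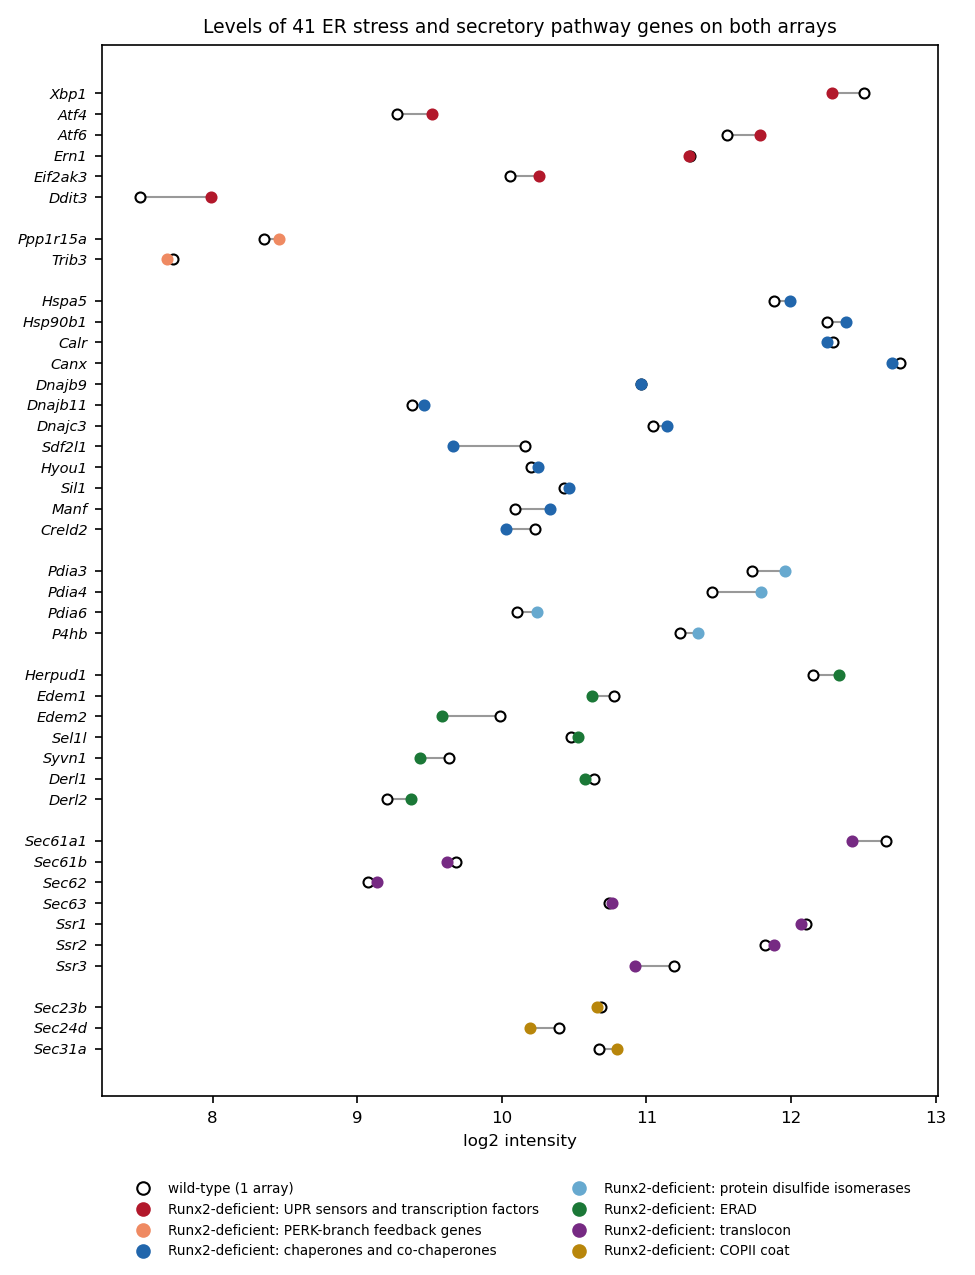
Log2 intensity of the 41 measured members on each array, grouped by class; open circles are the wild-type array, filled circles the Runx2-deficient array, and a line joins both values of a gene. Levels of different genes come from different probes and are not comparable along the axis; the gaps of Ddit3 and Sdf2l1, at 0.49 and -0.50, were the widest upward and downward as deposited.

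Of the 12 ER chaperone and co-chaperone genes, 11 were not 25% apart, with 7 above 0 and 4 below it. Their median was 0.043. Hspa5 encodes BiP, the HSP70 of the ER that also holds the stress sensors inactive, and its level is the usual readout of the response. It was at 3778 intensity units in wild type and 4080 without Runx2, a difference of 0.11. Hsp90b1 encodes gp96, the HSP90 of the ER, which folds Toll-like receptors and integrins. It was at 4857 and 5326, a difference of 0.13.

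The lectin chaperones, which hold newly made glycoproteins, were also close to equal. Calr, which encodes calreticulin, was at 5016 in wild type and 4856 without Runx2, a difference of -0.05. Canx, which encodes the membrane-bound calnexin, was at 6914 and 6642, a difference of -0.06. For neither gene was the sign the same under all scalings of the arrays.

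The J-domain co-chaperones, which deliver clients to BiP and start its ATPase cycle, lay between 0 and 0.10. Dnajb9 (ERdj4), a classic target of XBP1, was at 1994 on both arrays. Dnajb11 (ERdj3) was at 666 in wild type and 704 without Runx2, and Dnajc3 (p58IPK) at 2113 and 2259. The exchange factors of BiP were similar too, with Hyou1 (GRP170) at 1177 and 1220 and Sil1 at 1381 and 1415.

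Sdf2l1 was the lowest of all members, as deposited and under each alternative setting. Its product is a partner of the ERdj3 co-chaperone and is strongly induced by the UPR. The intensity was 1145 in wild type and 810 without Runx2, 1.41-fold lower, a difference of -0.50. Of genes past the filter, 9.97% lay at least as far from 0. Its partner gene Dnajb11 differed by 0.08.

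Of the stress-induced secreted proteins of the ER, Manf and Creld2 had opposite signs. Manf, a protective factor that binds BiP, was at 1089 intensity units in wild type and 1290 without Runx2, a difference of 0.24. Creld2, an isomerase-like protein, was at 1203 and 1047, a difference of -0.20. Neither was 25% apart, and the 4 genes with the widest gaps in this class, Sdf2l1, Manf, Creld2 and Hsp90b1, include both signs.

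Promoter sequences were searched for elements of the stress response, which 12 of the 35 genes with a promoter window hold. The list was chosen for ER stress and secretory genes, so its share of such elements is not independent of that choice. RefSeq promoter windows (GRCm38.p6, 250 bases before to 50 after the transcription start) were at hand for 35 of the 42 listed genes, 38 windows in all since 3 genes have 2. The ER stress response element (ERSE), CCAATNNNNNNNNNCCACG, is bound by NF-Y at its first part and by ATF6 or XBP1 at its last. It was found, on either strand, in 8 of the 35 genes (22.9%), against 0.119% of all 32851 promoter windows and 0.115% of those of named genes. The matches in these 8 genes are shown because they mark the class of genes the response acts on; capitals mark the fixed letters, and genes with the element on the other strand read CGTGG first.

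Hspa5: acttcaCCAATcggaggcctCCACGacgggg
Hsp90b1, far site: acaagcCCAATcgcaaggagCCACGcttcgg
Hsp90b1, near site: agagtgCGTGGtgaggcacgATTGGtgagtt
Calr: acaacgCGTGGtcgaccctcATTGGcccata
Canx: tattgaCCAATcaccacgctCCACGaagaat
Dnajc3: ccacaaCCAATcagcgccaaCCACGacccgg
Creld2: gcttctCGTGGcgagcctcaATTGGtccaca
Pdia6: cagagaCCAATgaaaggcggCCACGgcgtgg
Syvn1: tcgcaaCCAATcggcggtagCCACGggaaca

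The sites lie at chr2:34772019-34772049 (Hspa5, + strand), chr10:86705632-86705662 and chr10:86705527-86705557 (Hsp90b1, - strand), chr8:84847069-84847099 (Calr, - strand), chr11:50325794-50325824 (Canx, - strand), chr14:118937821-118937851 (Dnajc3, + strand), chr15:88819514-88819544 (Creld2, + strand), chr12:17266485-17266515 (Pdia6, + strand) and chr19:6046526-6046556 (Syvn1, + strand). Hsp90b1 was the only member with 2 exact matches in its window. Its 250 bases upstream of the start, chr10:86705445-86705694 on the - strand, are given whole because they hold both orientations of the element.

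Hsp90b1: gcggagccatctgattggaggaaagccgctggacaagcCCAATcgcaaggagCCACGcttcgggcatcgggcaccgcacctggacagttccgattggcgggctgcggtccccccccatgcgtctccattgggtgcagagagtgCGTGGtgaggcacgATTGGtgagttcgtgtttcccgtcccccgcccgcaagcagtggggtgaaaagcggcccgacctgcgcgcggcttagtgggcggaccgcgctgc

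The genes with an exact ERSE did not lie on one side of 0. Their 8 differences ran from -0.20 (Creld2) to 0.14 (Pdia6), with 4 above 0 and a median of 0.025. The 26 measured genes with a window and no exact ERSE had a median of 0.035, with 14 above 0.

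Other elements of the response were found in fewer members than ERSE, although UPRE and CARE, described next, are commoner over all windows. ERSE-II, ATTGGNCCACG, was found in 2 genes (5.71%), Herpud1 and Dnajb11, against 0.0365% of all windows. The core of the XBP1 element (UPRE), TGACGTGG, was found in Sec24d alone (2.86%), against 0.676%. The ATF4 element (CARE), TGATGNAA, was found in Herpud1 and Trib3 (5.71%), against 3.97%, so its share among members is near that of all windows. The letters CCACG end both ERSE forms and are part of the UPRE core read on the other strand, but 0 matches overlapped in these windows. The matches are printed with capitals on the fixed letters, Herpud1 being the one gene with 2 kinds of element.

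Herpud1, ERSE-II: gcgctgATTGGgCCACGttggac
Herpud1, CARE: ggcgggTTgCATCAgcccgc
Dnajb11, ERSE-II: gcggcgATTGGcCCACGcctggc
Trib3, CARE: tcaggtTTaCATCAgccggg
Sec24d, UPRE core: ggcgccTGACGTGGcactag

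These stretches lie at chr8:94386371-94386393 and chr8:94386311-94386330 (Herpud1, + strand), chr16:22857846-22857868 (Dnajb11, + strand), chr2:152344033-152344052 (Trib3, - strand) and chr3:123267464-123267483 (Sec24d, + strand). The Runx binding site TGTGGT, searched because the deleted factor is a Runx protein, was found in 1 of the 35 genes, Sec23b, against 16.8% of all windows and 14.2% of those of named genes. A match or its lack concerns these letters in this window and says nothing about binding.

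**Figure D3:**
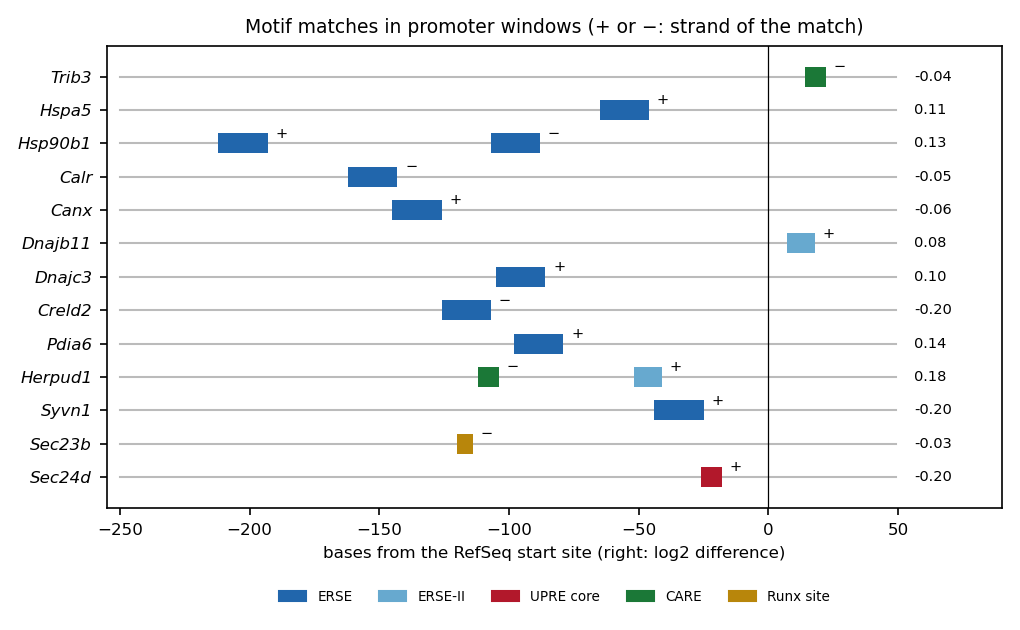
Positions of motif matches in the promoter windows of the 13 members that hold one, in bases from the RefSeq start site (0), with the strand of each match and, at the right, the log2 difference of the gene. ERSE matches in 8 genes lie upstream of the start, with their first base between -212 in Hsp90b1 and -44 in Syvn1, at differences from -0.20 to 0.14.

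None of the 4 members that were 25% apart holds an exact match to any of these 5 motifs in its window. Most other members lack one too, since only 12 of the 35 with a window hold a stress motif. The search took exact letters, so an element with a changed letter was not counted. The 250 bases upstream of the start of the highest and the lowest member, Ddit3 and Sdf2l1, are printed for comparison. Capitals mark the ERSE parts CCAAT and CCACG, each on its own and on either strand. Ddit3 has CCAAT 1 time and CCACG 0 times in chr10:127290543-127290792 (+ strand). At the exact spacing of 9 bases from its CCAAT, however, stands cgtgc, 1 letter off CGTGG. Whether it acts as an element was not tested. Sdf2l1 has 3 of each in chr16:17132384-17132633 (- strand), at spacings other than the exact one. Over all windows, which are longer at 300 bases, 37.4% hold CCAAT and 32.8% hold CCACG. Of the 35 members with a window, 74.3% hold CCAAT and 74.3% hold CCACG.

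Ddit3: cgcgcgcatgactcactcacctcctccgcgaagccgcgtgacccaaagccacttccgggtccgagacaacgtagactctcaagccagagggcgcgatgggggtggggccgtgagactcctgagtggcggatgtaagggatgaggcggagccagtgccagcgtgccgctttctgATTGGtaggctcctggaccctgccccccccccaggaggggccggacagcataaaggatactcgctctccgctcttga
Sdf2l1: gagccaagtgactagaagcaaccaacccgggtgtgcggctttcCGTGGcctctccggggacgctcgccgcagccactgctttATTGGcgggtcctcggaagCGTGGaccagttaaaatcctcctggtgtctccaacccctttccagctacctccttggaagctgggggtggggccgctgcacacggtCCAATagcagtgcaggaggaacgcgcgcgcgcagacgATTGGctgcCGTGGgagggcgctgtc

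The protein disulfide isomerases, which form and reshuffle the disulfide bonds of secreted proteins, had all 4 listed genes above 0, with a median of 0.18, while 47.8% of genes past the filter were above 0. Pdia4 (ERp72) was at 2799 intensity units in wild type and 3545 without Runx2, 1.27-fold higher, a difference of 0.34. Of genes past the filter, 22.0% lay at least as far from 0. Pdia3 (ERp57), which works with calnexin and calreticulin and in the loading of MHC class I, was at 3393 and 3969, a difference of 0.23. Pdia6 and P4hb (PDI) differed by 0.14 and 0.13. The isomerases Pdia5 and Txndc5, followed among the other pathway genes, differed by -0.56 and 0.90, so the family as a whole went both ways.

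The genes of ER-associated degradation differed in both directions, with 3 of 7 above 0 and a median of -0.064. Edem2 encodes a mannosidase-like protein that trims glycans of misfolded glycoproteins and so marks them for removal. It was at 1017 intensity units in wild type and 769 without Runx2, 1.32-fold lower, a difference of -0.40, and 15.8% of genes past the filter lay at least as far from 0. Its relative Edem1, an XBP1 target, was at 1753 and 1580, a difference of -0.15.

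The ubiquitin ligase at the core of ERAD is made of Syvn1 (HRD1), the catalytic subunit, and its partner Sel1l. Syvn1 was at 795 in wild type and 693 without Runx2, a difference of -0.20, and Sel1l at 1427 and 1477, a difference of 0.05. Herpud1, a stress-induced scaffold of this ligase, was at 4558 and 5168, a difference of 0.18. The derlins, which help pull proteins out of the membrane, were at 1593 and 1524 for Derl1 and at 590 and 663 for Derl2. Their differences of -0.06 and 0.17 have opposite signs, and none of these 5 genes was 25% apart.

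None of the 7 measured members of the translocation machinery was 25% apart. Their median was -0.038, with 3 above 0. Sec61a1 encodes the channel itself and was at 6462 intensity units in wild type and 5490 without Runx2, a difference of -0.24. Sec61b, its small beta subunit, was at 824 and 786, a difference of -0.07. The channel's partners in post-translational import, Sec62 and Sec63, were at 540 and 563 and at 1709 and 1733, which are differences of 0.06 and 0.02.

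The translocon-associated protein (TRAP) complex, which assists the entry of some signal sequences, was nearly equal for its first subunits. Ssr1 was at 4401 in wild type and 4287 without Runx2, and Ssr2 at 3623 and 3778. Ssr3 was at 2335 and 1941, a difference of -0.27, the lowest of the class. Ssr4, the remaining subunit, which was followed among the other pathway genes and is named here after its value was seen, differed by 0.33 and was 25% apart. The 4 subunits of this complex thus spanned -0.27 to 0.33 on the same pair of arrays.

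The COPII coat buds vesicles from the ER. Its 3 listed genes were in no case 25% apart, with a median of -0.026; Sec23a, followed among the other pathway genes, differed by 0.41. Sec23b, of the inner coat, was at 1647 intensity units in wild type and 1617 without Runx2. Sec24d, a cargo-binding inner coat subunit, was at 1349 and 1171, a difference of -0.20. Sec31a, of the outer coat, was at 1634 and 1782, a difference of 0.13.

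Side by side, the class medians ran from -0.064 for ERAD, -0.038 for the translocon and -0.026 for COPII to 0.035 for the PERK feedback genes, 0.043 for chaperones, 0.18 for disulfide isomerases and 0.22 for the sensors and their factors. The widest gap between class medians, 0.28, was under 0.32, and the ranges of sensors, chaperones and ERAD genes overlapped. Under other scalings the signs of the ERAD, translocon, COPII and chaperone medians changed, and those of the other 3 classes did not. No spread between samples is available against which to set these gaps.

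**Figure D4:**
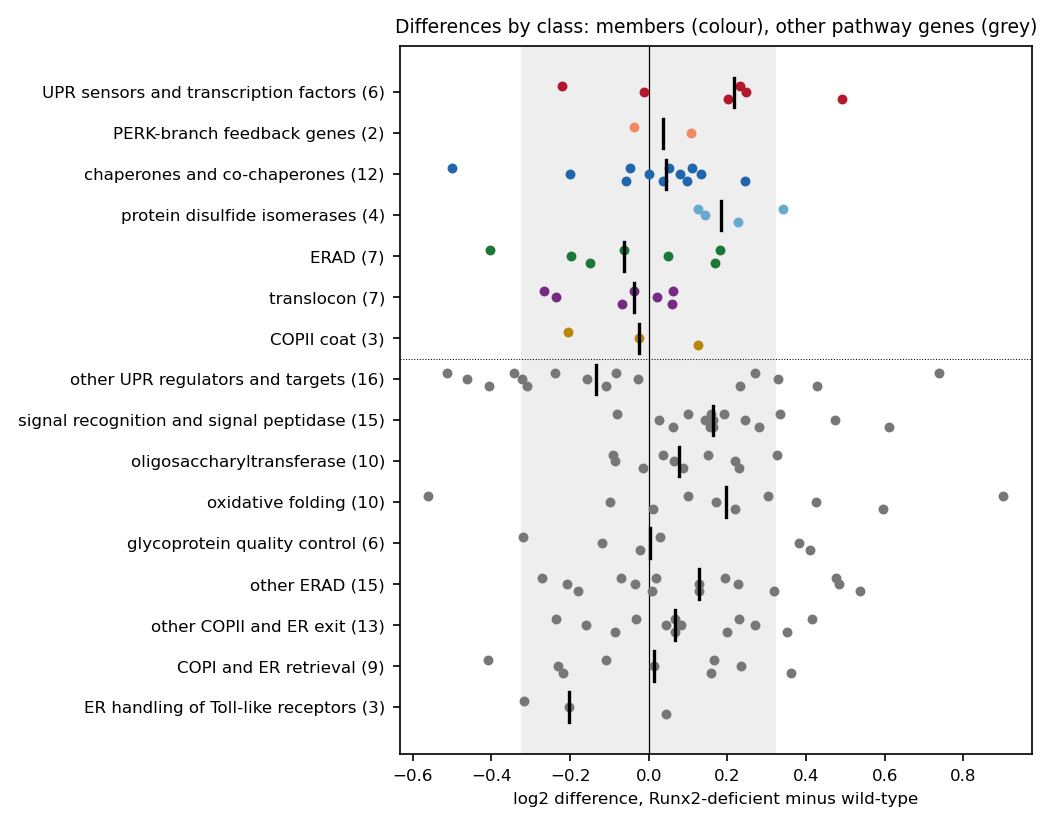
Log2 difference (Runx2-deficient minus wild-type) of each measured gene by class, with the number of genes in brackets; members in colour above the dotted line, other pathway genes in grey below it. Black bars are class medians and the shaded band is less than 25% apart; the disulfide isomerases lie wholly above 0, with a median of 0.18, and none of the 7 translocon and 3 COPII coat members leaves the band.

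Another 97 measured genes of the same pathways came from a list of 102. Of these, 25 were 25% apart, 18 of them higher on the Runx2-deficient array and 7 lower, and none was 2-fold apart. Among genes past the filter 24.4% were 25% apart, so the count of 25, with both directions pooled, is near that background. By direction, 10.8% of genes past the filter were higher and 13.6% lower. Of the 97, the 18 higher are thus above that share and the 7 lower below it. The median of the 97 genes was 0.083, and 91 of them were past the filter. At 1.5-fold, where 3.02% of genes past the filter were higher and 3.86% lower, 4 of the 97 were higher and 0 lower. The 4 were Txndc5, Eif2ak4, Srp14 and Txndc11, of which Txndc11 was named after its value was seen.

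Oxidative folding genes held the largest difference. Txndc5 (ERp46), a disulfide isomerase abundant in plasma cells, was at 1687 intensity units in wild type and 3151 without Runx2, 1.87-fold higher. Pdia5, another isomerase, was at 757 and 513 intensity units, a difference of -0.56 and the lowest of the 97. The class had 8 of 10 genes above 0 and a median of 0.20, while 47.8% of genes past the filter were above 0. Signal recognition and signal peptidase genes bring new chains to the channel and cut off their signal sequence. In that class 14 of 15 were above 0, against the same 47.8%, with a median of 0.16. The class also holds Ssr4 (0.33), Sec61a2 (0.16) and Tram1 (0.03), genes of the channel and its partners, named for comparison with the translocon members. Srp14, an RNA-binding subunit of the signal recognition particle, was highest at 0.61, and Spcs3 of the signal peptidase lowest at -0.08.

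Other regulators and targets of the stress response went both ways, with 5 of 16 above 0 and a median of -0.13. Highest was Eif2ak4, which encodes GCN2, the kinase that senses amino acid shortage and acts on the same target as PERK. It was at 457 intensity units in wild type and 761 without Runx2, 1.67-fold higher. Lowest was Asns, asparagine synthetase, an ATF4 target, at 210 and 147, a difference of -0.51. The other 4 genes that were 25% apart downward, named after their values were seen, were Sesn2 (-0.46), Chac1 (-0.41), Atf6b (-0.34) and Cebpb (-0.32). Besides Eif2ak4, the genes 25% apart upward, also named after their values were seen, were Map3k5 (0.43) and Wfs1 (0.33). The Asns level without Runx2 and both levels of Cebpb lay below the filter level.

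The remaining classes had medians between -0.20 and 0.13. Among other ERAD genes, Ube2j1, a membrane-anchored ubiquitin-conjugating enzyme, was highest at 0.54 and Ube2j2, its relative, lowest at -0.27. In the oligosaccharyltransferase, which attaches glycans, Tusc3 was highest at 0.33 and Rpn2 lowest at -0.09. For glycoprotein quality control the extremes were Uggt1, the sensor of glycoprotein folding, at 0.41 and Prkcsh, a glucosidase subunit, at -0.32. Of the other ER exit genes Sec23a was highest at 0.41 and Preb, an activator of coat assembly, lowest at -0.24. In COPI and retrieval, Arcn1, a coat subunit, was at 0.36 and Kdelr3, a receptor for escaped ER proteins, at -0.41 with both levels below the filter. The genes that handle Toll-like receptors in the ER were highest for the escort Unc93b1 at 0.04 and lowest for Lrrc59 at -0.32.

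Plasma cells are another secretory cell type that shares many of these genes, so their markers are given beside the classes above. Of 9 plasma cell markers 7 were above 0, and their summed intensity was 12474 in wild type and 14548 without Runx2. Slamf7 and Sdc1 were 3.05-fold and 1.87-fold higher. Jchain and Irf4 differed by 0.18 and 0.16. Prdm1 (-0.17) and Tnfrsf17 (0.09) were below the filter on both arrays. Of the 9, Xbp1 is also a member, and Mzb1 and Derl3 are also among the other pathway genes, and pDCs themselves express several. Their part in the differences was not tested.

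The scaling of the arrays decided the sign of the members nearest to 0. Over 6 alternative settings, 29 of the 41 members kept their sign and 12 did not: Ern1, Trib3, Calr, Canx, Dnajb9, Hyou1, Sil1, Derl1, Sec61b, Sec63, Ssr1 and Sec23b, all within 0.07 of 0. The number of members above 0, 23 as deposited, ran from 20 to 32 over the 5 settings that change the values. The settings moved other genes too. The median of genes past the filter was -0.051 with quantile normalization and 0.062 with median centring. The members' count above 0 for that reason moved partly with all genes. Among chaperones, translocon, ERAD and sensors the counts below share this shift. For chaperones it ran from 5 to 10 of 12 and for the translocon from 2 to 5 of 7. For ERAD it ran from 3 to 4 of 7 and for the sensors from 4 to 5 of 6. All 4 disulfide isomerases and 14 of 15 genes of the signal recognition and signal peptidase class were above 0 in each setting. Ddit3 ran from 0.43 to 0.57, Sdf2l1 from -0.56 to -0.42 and Edem2 from -0.47 to -0.33, each 25% apart in every setting. Pdia4 ran from 0.33 to 0.64, the upper value being the mean of its 2 probe sets.

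**Figure D5:**
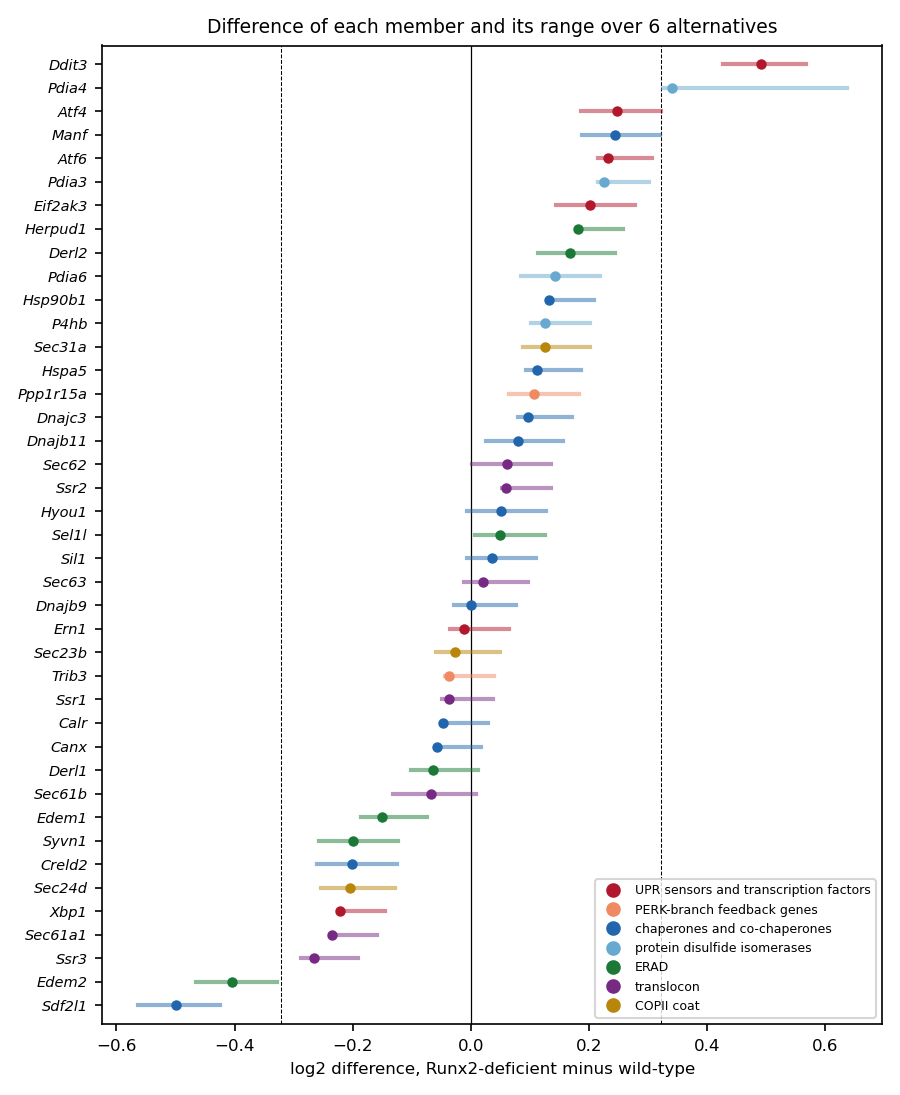
Log2 difference (Runx2-deficient minus wild-type) of each measured member (points) and its range over 6 alternative settings (bars), ordered by the difference and coloured by class; dashed lines mark 25% apart. Ddit3, Pdia4, Edem2 and Sdf2l1 stay outside the dashed lines, and the 12 bars that cross 0 belong to members within 0.07 of it.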

How the data were processed

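The authors deposited 1 linear intensity per probe set and array, from 15.3 to 20364; per the submitters' processing notes they used RMA, which corrects background, equalises arrays and summarises probes, and which compresses differences of dim probe sets. RMA usually gives log2 values, and the deposited column is linear; no source used here gives the software, its version or the arrays normalised together. Median intensities were 181.7 (Runx2-deficient) and 182.9 (wild-type), and the number of arrays, 1 per group, limits the precision. Of 35556 probe sets, 21789 carry 1 gene symbol in the platform annotation and were named; 1621 carry several and 12146 none, and these were not used. The annotation can be old; 2 listed symbols were matched through RefSeq identifiers.

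Intensities were taken to log2 without a pseudocount and subtracted. Members, gene lists, folds and motifs were chosen with earlier results of these data known. All members could be named; of the other pathway genes, the highest and lowest of each class and any 2-fold apart; others are said to be named after their values were seen, or are named for comparison with a member of the same complex, family or list. Motifs were searched for exact letters on both strands. The counting step was tested on simulated data. Alternatives were median centring, loess of the difference on the mean (span 0.3), quantile normalization, a pseudocount of 32, averaging over probe sets, the brightness filter and a 1.5-fold threshold. Computations ran in Python 3.11.15 with statsmodels 0.14.6 for loess, pandas 2.3.3 and numpy 2.4.6 for tables, and matplotlib 3.10.9 for plots.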

Additional observations from a re-analysis of the deposited data

Results flagged for a closer look

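Pdia4 has a second probe set that was not used for its value. There the intensity was 252 in wild type and 480 without Runx2, a difference of 0.93, against 0.34 on the brighter probe set used. It stood out as a signal outside the values compared that was higher than in the wild-type sample; which of the probe sets reports the transcript better was not tested.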

How the results depend on the processing

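The median over the 41 members, the class medians and the median of the other pathway genes moved by less than 0.1 under each of the 6 alternatives. The sign changed for the members (-0.0058 to 0.13), chaperones (-0.0063 to 0.12), ERAD (-0.10 to 0.012), translocon (-0.048 to 0.038) and COPII (-0.060 to 0.050), and not for the sensors (0.16 to 0.29), the PERK feedback genes (0.011 to 0.11), the disulfide isomerases (0.16 to 0.26) or the other pathway genes (0.061 to 0.16). At a 1.5-fold threshold the count of members apart was 0, with 0 higher and 0 lower, against 4, 2 and 2 at 25%. With each array centred on its median the count was 5, with 3 higher, since Atf4 joined them at 0.32; under the other alternatives it was 4. Sdf2l1 was furthest from 0 as deposited, but Ddit3 was with centring (0.57) and loess (0.56), and Pdia4 with the mean over probe sets (0.64). Of single members, only the mean of the probe sets moved one by 0.1 or more, Pdia4 from 0.34 to 0.64. No paired analysis was possible because each group has 1 array, and for the same reason no replicate could be left out. The deposited table gives no detection calls, so signal over background is unknown per gene; of the members Ddit3 and Trib3 lie nearest to the filter level.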

Other observations

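Identical values occur in the deposited table. Dnajb9 had the same intensity, 1994, on both arrays, as did 148 of the 19938 named genes, Dnajb9 included. One of the 3 probe sets of Sec61b, a dimmer one that was not used, was at 393.3 on both arrays, and the other unused one differed by 0.04. The 2 probe sets of Dnajc3 carried the same pair of values, 2113 and 2259, so they do not serve as independent measurements of that gene.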
